A study of Rattus norvegicus with 32 samples.

Results

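The chloride intracellular channel genes of the rat, Clic1 to Clic6, were followed through RNA-seq of liver sinusoidal endothelial cells (LSECs), the fenestrated cells that line the hepatic sinusoids. Members were found by their gene symbol, which gave 6 of the 32623 genes in the files: Clic1 (ENSRNOG00000029682), Clic2 (ENSRNOG00000000728), Clic3 (ENSRNOG00000015184), Clic4 (ENSRNOG00000018109), Clic5 (ENSRNOG00000047218) and Clic6 (ENSRNOG00000026870). Clic5 was chosen by its measured rise at cirrhosis against healthy LSECs, so its levels in healthy and cirrhotic LSECs are given as a description with no test. It was tested only between groups that its choice did not use.

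CLIC proteins are small proteins with the fold of a glutathione transferase. They occur in a soluble form and a membrane-associated form, and although they were named for chloride conductance, much of their work lies at the cell cortex, where they accompany ezrin, radixin and moesin, the ERM proteins that tie actin filaments to the plasma membrane. In endothelium, Clic4 and Clic1 are known for lumen formation and for the response to the lipid mediator sphingosine 1-phosphate (S1P). Clic5 is best known from the stereocilia of the inner ear and from the foot processes of kidney podocytes, where it works with ezrin or radixin.

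The series held 32 libraries of poly(A) RNA from LSECs isolated on an iodixanol density gradient, each labelled as coming from a rat. In the carbon tetrachloride (CCl4) model there were 22 libraries of Wistar Han rats, namely 6 of untreated rats (healthy), 5 of rats treated for 2 weeks (acute), 5 of rats treated for 6 weeks (fibrosis) and 6 of CCl4-treated rats with cirrhosis, for which the series text gives 12 to 14 weeks. CCl4 was inhaled, the methods name male rats given phenobarbital in the drinking water, and LSECs were isolated some days after the last dose, so the groups describe liver injury by this regimen and not by CCl4 alone. A further 10 libraries belonged to an experiment with thioacetamide (TAA), 5 titled T1 to T5 and labelled control, and 5 titled T10 to T15 and labelled TAA control. The series text names healthy Sprague-Dawley rats and TAA-cirrhotic rats for this experiment, whereas the labels give Wistar Han for every library, and which of the groups received TAA is not settled by the labels. Differences are therefore given as T10-15 against T1-5, with no statement on which is the diseased group. No ages were given.

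Libraries held between 25646531 and 46464289 counts, and the lowest total in the CCl4 model was 28205908, in the fibrosis group. Levels are in CPM, counts scaled to the library's size with TMM factors, and this scaling was computed separately in the 22 CCl4 and the 10 TAA libraries, so levels were not set on a common scale between the 2 experiments. A gene was called when its Benjamini-Hochberg adjusted p from limma-voom was under 0.05 and its fold-change was above 1.5. The labels do not say whether libraries of a group were prepared independently, so p-values measure the spread between these libraries. Replicates 14 and 15 of the T10-15 group lay closer to each other (chi-square per degree of freedom 2.96) than any other pair within a group, the next closest being at 23.6. Their difference was still above sampling noise, and both libraries were kept, but this does not show that they are independent. The exact permutation tests below treat them as separate libraries. The LSEC label was checked with 10 markers found out of 11 listed, none of which was at 0 throughout a group. Their summed level was 15900 to 30400 CPM in healthy, 3540 to 4200 CPM in acute, 2410 to 3400 CPM in fibrosis and 15800 to 20200 CPM in cirrhosis libraries, and 8 of 10 were called lower in acute and 9 of 10 in fibrosis against healthy LSECs. Of all genes tested, 73.4% were called in acute and 70.2% in fibrosis against healthy LSECs, in either direction. In the TAA experiment the summed marker level was 22100 to 27700 CPM in T1-5 and 27000 to 35500 CPM in T10-15. In bulk RNA, fewer cells of a type and less RNA per cell cannot be told apart, which applies to every level given here.

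Clic5 was present only in traces in early injury and stood far above healthy LSECs at cirrhosis. Healthy libraries held 1.35 to 8.57 CPM (median 2.72 CPM, mean 4.12 ± 2.89 CPM, SD, n = 6). The 5 acute libraries held 0.24, 0.60, 0.47, 0.30 and 0.22 CPM (mean 0.367 ± 0.163 CPM, SD, n = 5), all below the lowest healthy library, but this rests on only 7 to 22 counts per library. In fibrosis, the levels were 2.75, 0.90, 0.43, 0.95 and 0.79 CPM (mean 1.17 ± 0.911 CPM, SD, n = 5), from 13 to 96 counts, and 1 library reached into the healthy range. Cirrhotic libraries held 36.5, 118, 42.2, 85.3, 111 and 202 CPM (median 98.4 CPM, mean 99.3 ± 60.7 CPM, SD, n = 6), on 1432 to 8154 counts, so that the lowest cirrhotic library lay above the highest of every other CCl4 group. The fitted change of cirrhosis was 24.7-fold against healthy, 84.4-fold against fibrosis and 236-fold against acute LSECs. Against healthy LSECs, Clic5 was at 0.107 times the level in acute LSECs, and its fitted log2 fold change was -1.73 in fibrosis with overlapping libraries. By level, the order was therefore cirrhosis, healthy, fibrosis and acute, in which the neighbours healthy and fibrosis, and fibrosis and acute, overlapped.

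**Figure D1:**
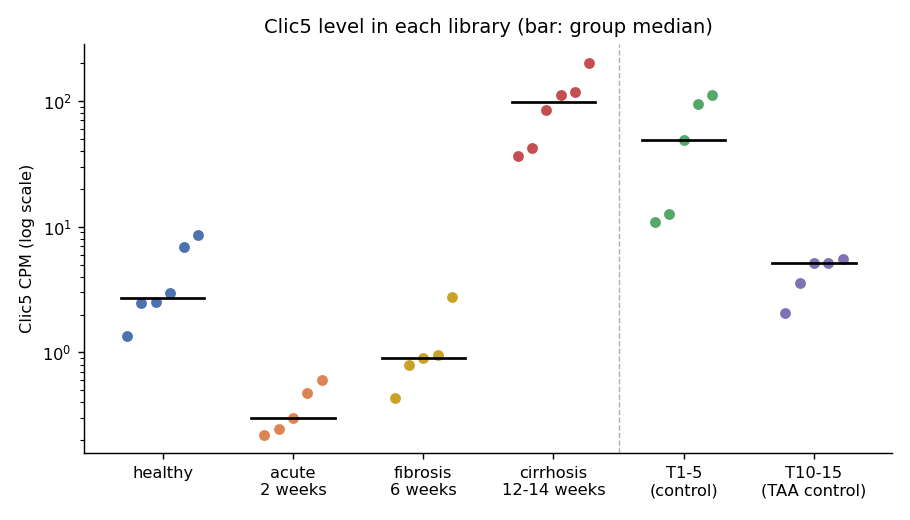
Clic5 level in each of the 32 LSEC libraries, in CPM on a log axis, by group (points are libraries, horizontal bars are group medians). The 6 cirrhotic libraries sit between 36.5 and 202 CPM, and the T1-5 libraries spread from 10.9 to 111 CPM above all T10-15 libraries. The CCl4 and TAA libraries were scaled separately.

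The acute and fibrosis libraries were not used to single out Clic5 and could be tested. Clic5 was 1.55 ± 0.503 (log2 fold change, SE) higher in fibrosis than in acute LSECs, with a 95% interval of 0.44 to 2.66, and did not pass the call (limma-voom, Benjamini-Hochberg adjusted p = 0.0515). A two-sided exact permutation test of log2 CPM gave a difference of 0.82 at p = 0.0238 for Clic5 (Benjamini-Hochberg adjusted p = 0.0476 over the 10 such tests of members). With edgeR's quasi-likelihood test the adjusted p was 0.036 (log2 fold change 1.74), and without fibrosis replicate 15 limma-voom gave 1.81 with an adjusted p of 0.0332, so the call rests on the setting.

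The TAA experiment gave a test of Clic5 in libraries that its choice had not used. T1-5 libraries held 111, 12.7, 10.9, 94.3 and 48.5 CPM (mean 55.5 ± 45.9 CPM, SD, n = 5), and T10-15 libraries held 2.07, 3.57, 5.17, 5.09 and 5.54 CPM (mean 4.29 ± 1.45 CPM, SD, n = 5). The groups did not overlap, and the spread within T1-5 was 10.2-fold from the lowest to the highest library against 2.68-fold in T10-15. Clic5 was lower in T10-15 by limma-voom, with a log2 fold change of -3.21 ± 0.967 (SE; 95% interval -5.34 to -1.09; 0.108 times the level; Benjamini-Hochberg adjusted p = 0.0176). The two-sided exact permutation test gave p = 0.00794 (adjusted p = 0.0265), the smallest that the 252 splits of 5 against 5 libraries allow. Within groups the libraries often differed widely in Clic5. Its coefficient of variation was 0.703 in healthy, 0.443 in acute, 0.782 in fibrosis and 0.612 in cirrhosis libraries. In the TAA experiment it was 0.828 in T1-5 and 0.338 in T10-15.

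Markers of other cells differed between the groups where Clic5 differed. By median sum, lymphatic and cholangiocyte markers did not follow the Clic5 order at every CCl4 stage, and stellate cell markers did. Of all genes tested, 51.8% were called in cirrhosis against healthy and 27.6% in T10-15 against T1-5, in either direction. Of 6 lymphatic endothelial markers, 4 were called higher and 1 lower in cirrhosis against healthy, and 5 of 6 were called lower in T10-15 against T1-5. Their summed level was 1010 to 1550 CPM in healthy, 1460 to 2350 CPM in acute, 1280 to 1700 CPM in fibrosis, 1500 to 3340 CPM in cirrhosis, 1720 to 4160 CPM in T1-5 and 992 to 1370 CPM in T10-15 libraries. The list includes Flt4 and Reln, which were abundant in every group. Flt4 averaged 1094 CPM in healthy, 626 CPM in cirrhosis, 800 CPM in T1-5 and 1039 CPM in T10-15 libraries. Ccl21 had the highest mean of the list in cirrhosis, at 1185 CPM against 3.84 CPM in healthy. Mmrn1, a multimerin of lymphatic endothelium, averaged 0.379 ± 0.229 CPM over the 6 healthy and 165 ± 89.9 CPM over the 6 cirrhotic libraries (SD). It averaged 206 ± 134 CPM in T1-5 and 1.19 ± 1.08 CPM in T10-15 libraries (SD, n = 5 each). Of the markers named here, Mmrn1, Flt4, Reln and Spp1 lay outside the rule for named genes. Stellate cell markers (7 found of 8) summed to 106 to 188 CPM in healthy, 7.24 to 17.9 CPM in acute, 48.6 to 118 CPM in fibrosis, 122 to 310 CPM in cirrhosis, 359 to 721 CPM in T1-5 and 117 to 127 CPM in T10-15 libraries, with 4 of 7 called higher in cirrhosis and 5 of 7 lower in T10-15. Cholangiocyte markers (7 of 7 found) summed to 2.32 to 30.7 CPM in healthy, 35.9 to 106 CPM in acute, 8.31 to 108 CPM in fibrosis, 8.94 to 39.1 CPM in cirrhosis, 5.96 to 13.7 CPM in T1-5 and 1.81 to 3.59 CPM in T10-15 libraries. Of these, 4 of 7 were called higher in cirrhosis and 6 of 6 tested were called lower in T10-15. In the acute group, where Clic5 was lowest, the median lymphatic sum was 1850 CPM against 1280 CPM in healthy. Reln carried this sum (mean 1678 CPM against 167 CPM), and of 5 lymphatic markers tested 1 was called higher and 3 lower. The median cholangiocyte sum was 91.2 CPM against 8.15 CPM in healthy. Spp1 carried it (mean 79.5 CPM against 0.38 CPM), and of 5 cholangiocyte markers tested 1 was called higher and 3 lower. The median stellate sum was 266 CPM in cirrhosis, 122 CPM in healthy, 81.1 CPM in fibrosis and 9.53 CPM in acute libraries. Of 7 stellate markers tested in acute against healthy, 0 were called higher and 6 lower. Of all genes tested, 73.4% were called in acute against healthy. None of these lists had a marker at 0 throughout a group. Their part in the Clic5 levels was not tested.

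Among 15578 genes, those whose log2 CPM followed Clic5 most closely over the 22 CCl4 libraries were Col8a2 (Pearson r = 0.977), the chemokine gene Ccl21 (r = 0.975), Mustn1 (r = 0.975), Rtn4rl1 (r = 0.97) and Scara5 (r = 0.967). These values describe libraries that share their group, and part of the likeness is the step at cirrhosis. With the group means taken out, r within groups was 0.711 for Col8a2, 0.675 for Ccl21, 0.598 for Mustn1, 0.771 for Rtn4rl1 and 0.719 for Scara5. These values come from the same 22 libraries that chose the genes. Over the 10 TAA libraries, which did not choose these genes, r with Clic5 was 0.88 for Col8a2, 0.873 for Ccl21, 0.902 for Mustn1, 0.888 for Rtn4rl1 and 0.743 for Scara5. These values span 2 groups in which Clic5 does not overlap. Within the 5 T1-5 libraries alone, r was 0.692 for Col8a2, 0.599 for Ccl21, 0.655 for Mustn1, 0.696 for Rtn4rl1 and 0.637 for Scara5. With only 5 libraries, r of this size is very uncertain, and it was not tested. On average Ccl21, which draws dendritic cells and lymphocytes to lymphatic vessels, was at 3.84 CPM in healthy, 0.361 CPM in acute, 0.98 CPM in fibrosis and 1185 CPM in cirrhotic LSECs, the cirrhotic libraries running from 504 to 2144 CPM. The TAA libraries held Ccl21 at 452 to 2480 CPM in T1-5 and 1.97 to 5.49 CPM in T10-15. The library with the highest Ccl21 among T1-5 was replicate 4, whereas Clic5 was highest in replicate 1. Col8a2, a short-chain collagen gene, averaged 1.64 CPM in healthy, 9.03 CPM in cirrhosis, 6.55 CPM in T1-5 and 0.309 CPM in T10-15 libraries.

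**Figure D2:**
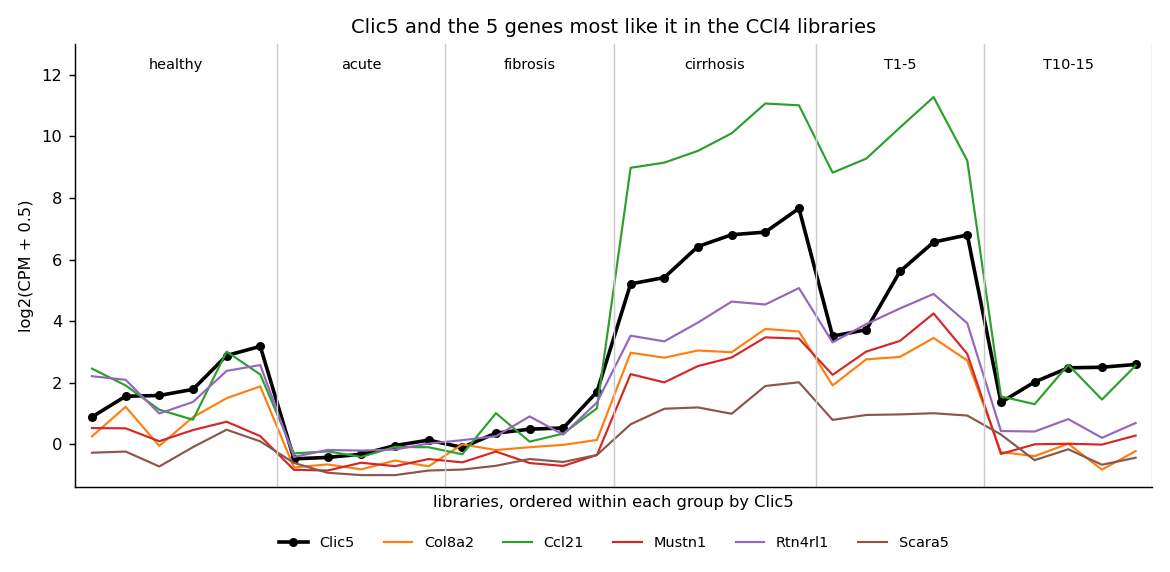
Levels of Clic5 (black, with points) and of the 5 genes most like it (coloured lines), as log2(CPM + 0.5), in the 32 LSEC libraries along the horizontal axis, ordered by Clic5 within each group. Each of the 5 genes has a Pearson r of 0.967 to 0.977 with Clic5 over the 22 CCl4 libraries. Heights are not comparable between genes because no transcript lengths were used.

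Clic4, the member best known from endothelial tube formation, was higher in fibrosis and, less firmly, in acute than in healthy LSECs, and was lower again at cirrhosis. Healthy libraries held 289 to 805 CPM (median 334 CPM, mean 408 ± 197 CPM, SD, n = 6), of which replicate 3 stood alone at 805 CPM and the others reached at most 380 CPM. Acute libraries held 628, 586, 629, 347 and 1026 CPM (mean 643 ± 244 CPM, SD, n = 5), and fibrosis libraries held 814, 882, 906, 675 and 672 CPM (mean 790 ± 111 CPM, SD, n = 5). Apart from the single high healthy library, fibrosis lay above healthy without overlap. Cirrhotic libraries held 289 to 623 CPM (median 531 CPM, mean 508 ± 115 CPM, SD, n = 6), with replicate 2 alone at 289 CPM.

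Clic4 was called higher in fibrosis than in healthy LSECs (log2 fold change 1.11 ± 0.236, SE; limma-voom, Benjamini-Hochberg adjusted p = 0.00106) and lower in cirrhosis than in fibrosis (-0.67 ± 0.179, SE; adjusted p = 0.00458), where no library of the 2 groups overlapped. Its rise in acute against healthy LSECs was near the limit (0.71 ± 0.3, SE; limma-voom adjusted p = 0.0456) and was lost in 6 of 11 fits that left out 1 library, whose adjusted p ran from 0.0033 to 0.117. In cirrhosis against healthy LSECs, the Clic4 difference of 0.39 ± 0.256 (SE) had a 95% interval of -0.16 to 0.94 (limma-voom adjusted p = 0.209), but without healthy replicate 3 it was 0.60 with an adjusted p of 0.0146 and was called. Without cirrhosis replicate 2 the fall from fibrosis was -0.50, short of the 1.5-fold limit. For Clic4, the TAA libraries held 436, 418, 548, 530 and 584 CPM in T1-5 and 262, 260, 201, 286 and 292 CPM in T10-15, with no overlap. It was called lower in T10-15 (log2 fold change -0.95 ± 0.125, SE; 0.518 times the level; limma-voom adjusted p = 0.000193), and the exact permutation test gave p = 0.00794.

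Since Clic4 and Clic5 were both called lower in T10-15, without overlap, their promoters are shown side by side. RefSeq (GRCr8) promoter entries were found for 3 of the 6 members, Clic3, Clic4 and Clic5, and the 250 bases before the annotated start are printed 5′ to 3′ in the direction of transcription. Both genes lie on the minus strand, Clic4 at chr5:152797119-152797368 and Clic5 at chr9:24310965-24311214. Capitals mark matches on either strand to GGGCGG (the GC box) or TGNGGT (the core letters bound by RUNX factors).
Clic4: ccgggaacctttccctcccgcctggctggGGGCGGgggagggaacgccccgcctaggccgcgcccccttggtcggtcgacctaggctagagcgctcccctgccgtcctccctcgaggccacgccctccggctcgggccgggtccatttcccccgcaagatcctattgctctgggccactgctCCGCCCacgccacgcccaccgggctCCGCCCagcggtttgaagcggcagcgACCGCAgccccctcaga
Clic5: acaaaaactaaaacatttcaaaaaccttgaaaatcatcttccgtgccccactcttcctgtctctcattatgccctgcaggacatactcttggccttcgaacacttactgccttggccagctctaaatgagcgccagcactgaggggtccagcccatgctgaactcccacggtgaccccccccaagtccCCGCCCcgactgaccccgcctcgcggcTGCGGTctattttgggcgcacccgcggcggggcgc
The Clic4 window held 3 GC boxes and 1 RUNX match at a GC content of 73.6%, and the Clic5 window held 1 GC box and 1 RUNX match at 58.4%, beside a median of 51.2% over 33469 promoter windows of this length. A GC box was present in 30.5% of all windows and the RUNX letters in 41%, so both are common. Neither window held TATAAA, present in 12.9% of windows, nor CCGGAA, the letters of ETS factors, present in 12.6%. These are matches of letters only.

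Clic1, the other member tied to S1P signalling, had a lower mean at each later CCl4 stage, although neighbouring groups overlapped. Healthy libraries held 251 to 765 CPM (median 469 CPM, mean 485 ± 171 CPM, SD, n = 6). The acute libraries held 367, 382, 321, 309 and 370 CPM, the fibrosis libraries 291, 327, 311, 283 and 315 CPM, and the 6 cirrhotic libraries 249 to 332 CPM (mean 282 ± 31.1 CPM, SD). Clic1 was called lower in cirrhosis than in healthy LSECs (log2 fold change -0.71 ± 0.224, SE; limma-voom, Benjamini-Hochberg adjusted p = 0.0162), and all 6 cirrhotic libraries lay below 5 of the 6 healthy ones. Without healthy replicate 3, which was the highest for Clic1, the change was -0.56 and no longer passed the fold limit. With library sizes in place of TMM factors it was -0.36 with an adjusted p of 0.0898. In fibrosis against healthy, Clic1 was at -0.53 ± 0.223 (SE; limma-voom adjusted p = 0.0488), inside the fold limit. That value was called under 5 alternatives, including edgeR (-0.60, adjusted p = 0.0288) and sample weights (-0.65). It was not called under 17, including DESeq2 (-0.57). In acute against healthy, Clic1 was at -0.37, with a 95% interval of -0.86 to 0.13. Between the TAA groups Clic1 was at 331 to 427 CPM in T1-5 and 274 to 306 CPM in T10-15 without overlap, a difference of -0.38 ± 0.0827 (SE; limma-voom adjusted p = 0.00348; exact permutation p = 0.00794) that was too small for the call.

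**Figure D3:**
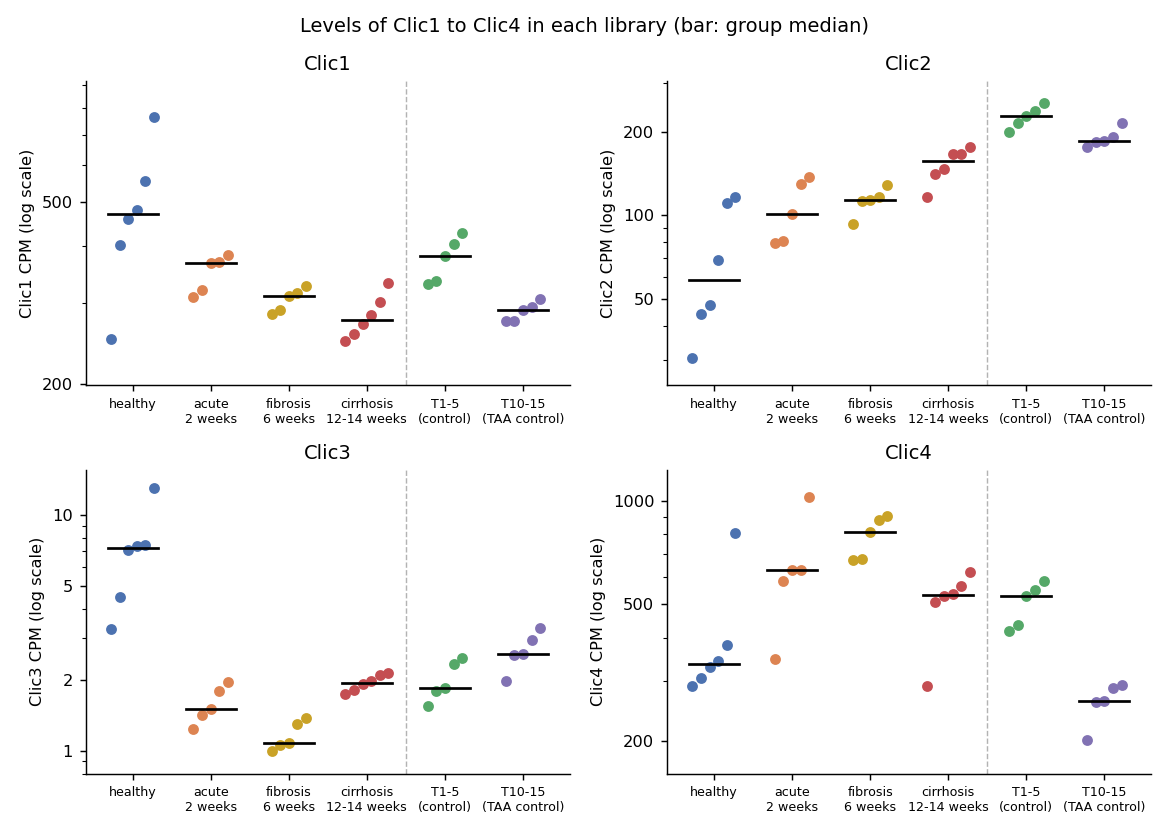
Levels of Clic1, Clic2, Clic3 and Clic4 in each of the 32 LSEC libraries, in CPM on log axes by group (points are libraries, horizontal bars are group medians). Clic2 has its highest CCl4 levels in cirrhosis (116 to 176 CPM), Clic3 in healthy libraries (3.28 to 12.9 CPM) and Clic4 in acute and fibrosis libraries.

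Clic2, whose product modulates ryanodine receptors, had a higher mean at each longer CCl4 treatment. Healthy libraries ranged from 30.6 to 117 CPM (median 58.3 CPM, mean 69.9 ± 36.4 CPM, SD, n = 6). The acute libraries held 130, 138, 101, 79.5 and 81.0 CPM, the fibrosis libraries 117, 114, 129, 92.8 and 113 CPM, and the cirrhotic libraries 116 to 176 CPM (median 157 CPM, mean 152 ± 21.9 CPM, SD, n = 6). Against healthy LSECs, Clic2 was called higher in fibrosis (log2 fold change 0.92 ± 0.313, SE; limma-voom, Benjamini-Hochberg adjusted p = 0.0185) and in cirrhosis (1.28 ± 0.288, SE; adjusted p = 0.00252), and its acute value of 0.76 ± 0.332 (SE) just missed (limma-voom adjusted p = 0.0517). That acute value was called under 10 alternatives and not under 13, the 10 including 3 that left out 1 library (healthy replicate 5 at 0.93, healthy replicate 6 at 1.02 or acute replicate 4 at 0.87) and the 13 including edgeR and DESeq2. Only the highest healthy library, at 117 CPM, reached the cirrhotic range. Cirrhosis against fibrosis gave 0.42 for Clic2 (limma-voom adjusted p = 0.00515) and cirrhosis against acute 0.55 (adjusted p = 0.00677), both inside the fold limit. In the TAA experiment, Clic2 was at 199 to 254 CPM in T1-5 and 177 to 215 CPM in T10-15, a difference of -0.25 (limma-voom adjusted p = 0.0241; exact permutation p = 0.0159) that was also inside it.

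Clic3, a member linked to integrin recycling in epithelial and tumour cells, was the one tested member called lower at all 3 CCl4 stages. Healthy libraries 1 to 6 held 12.9, 7.39, 7.12, 7.43, 4.47 and 3.28 CPM (mean 7.11 ± 3.35 CPM, SD). Levels were 1.23 to 1.96 CPM in acute, at most 1.38 CPM in fibrosis and 1.73 to 2.14 CPM in cirrhotic libraries, all below every healthy library. The log2 fold changes against healthy were -1.99 ± 0.373 in acute, -2.39 ± 0.388 in fibrosis and -1.70 ± 0.323 in cirrhotic LSECs (SE; limma-voom, Benjamini-Hochberg adjusted p = 0.000366, 0.000142 and 0.000919). Clic3 was then called higher in cirrhosis than in fibrosis (0.74 ± 0.151, SE; limma-voom adjusted p = 0.000717), without overlap. When all CCl4 groups were fitted together the adjusted p was 0.0514. Markers of T and NK cells (8 of 8 found) summed to 491, 280, 57.2, 103, 24.4 and 45.1 CPM in healthy libraries 1 to 6. They summed to 1.13 to 8.47 CPM in acute, 3.52 to 53.5 CPM in fibrosis and 19.8 to 46.7 CPM in cirrhotic libraries. Of these 8, 2 were called lower in cirrhosis, where 51.8% of all genes were called, and none was at 0 throughout a group. Between the TAA groups these markers were at 2.32 to 22.9 CPM in T1-5 and 80.1 to 185 CPM in T10-15, while Clic3 was at 1.55 to 2.48 and 1.97 to 3.32 CPM, a difference of 0.42 ± 0.188 (SE) that did not pass (limma-voom adjusted p = 0.0841). Mesothelial markers (6 of 6 found) summed to 95.5, 33.2, 28.7, 9.49, 4.43 and 16.6 CPM in healthy libraries 1 to 6. They were at 0.49 to 1.83 CPM in acute, 2.25 to 4.99 CPM in fibrosis and 6.95 to 14.4 CPM in cirrhotic libraries. In T1-5 they were at 4.56 to 6.65 CPM and in T10-15 at 1.53 to 3.73 CPM. Cholangiocyte markers summed to 30.7, 13.2, 9.79, 4.9, 2.32 and 6.51 CPM in healthy libraries 1 to 6. The part of these cells in the Clic3 levels was not tested. Clic3 counts were not whole in 31 of 32 libraries and Clic1 counts in 22, so reads of these members were in part divided by the authors' quantification.

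Clic6, a longer member known to bind dopamine receptors, was at or near 0 throughout. Its libraries held 0 to 6 counts, 13 of 32 held none, and its highest level was 0.218 CPM. It passed the low-count filter in no comparison and was not tested there. With no filter, limma-voom called it in acute against healthy (adjusted p = 0.00729), fibrosis against healthy (0.0097), cirrhosis against fibrosis (0.0114) and cirrhosis against acute (0.00442), on no more than 12 counts over all healthy, 1 over all acute, 1 over all fibrosis and 10 over all cirrhotic libraries. Its fitted folds depend on the prior count at this depth and are not given. A count of 0 allows up to 3 counts in a library, for counting error only.

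Of the 5 members other than Clic5, 4 passed the low-count filter in each comparison (all but Clic6). Calls are counted over these 4, as the shares of all genes are over genes that passed the filter. Against healthy LSECs, 2 of the 4 were called in acute LSECs (Clic4 higher, Clic3 lower), where 73.4% of all genes tested were called. Libraries of the 2 groups did not overlap for 1 of them (Clic3), beside 60% of all genes. In fibrosis 3 were called (Clic2 and Clic4 higher, Clic3 lower) beside 70.2% of all genes (no overlap for Clic3 alone, beside 58.7%), and in cirrhosis 3 (Clic2 higher, Clic1 and Clic3 lower) beside 51.8% (no overlap for Clic3 alone, beside 27.2%). Cirrhosis against fibrosis called 2 (Clic3 higher, Clic4 lower) beside 63.8%, neither of them with overlap, beside 63.3% of all genes. In cirrhosis against acute 0 of the 4 were called by limma-voom, beside 69.3% of genes, and 0 at an unadjusted p under 0.05 with the same fold limit, beside 69.7%. Clic1 and Clic2 passed the adjusted p alone there, edgeR and DESeq2 also called 0, and all 4 tested members overlapped between the groups, where 65.9% of genes did not. In fibrosis against acute 0 were called by limma-voom, edgeR or DESeq2, beside 11% of genes, and 0 at an unadjusted p under 0.05, beside 15.7%, with all 4 overlapping, where 17.2% of genes did not. In T10-15 against T1-5, 1 was called (Clic4 lower) beside 27.6% of genes, with Clic5 called lower in addition, and 2 did not overlap (Clic1 and Clic4), beside 35.4%. Wherever more than 1 of these 4 was called, they did not share a direction.

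**Figure D4:**
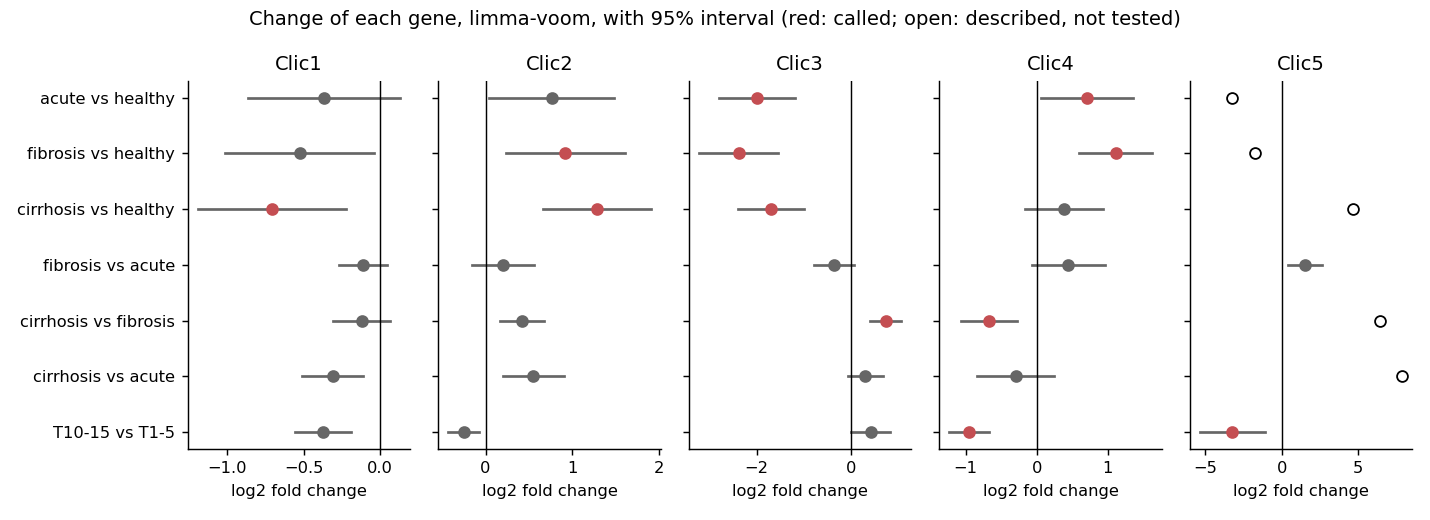
Log2 fold changes of the Clic genes in the 7 comparisons from limma-voom, with 95% intervals as bars called members in red and described values as open circles. Clic5 stands at 4.63 in cirrhosis against healthy and -3.21 in T10-15 against T1-5, while the other members stay between -2.39 and 1.28. Clic5 values that involve healthy or cirrhotic libraries are a description.

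Clic4, Clic5 and Clic6 lie beside Runx and Rcan genes, in clusters that arose by duplication. In RefSeq gene order (GRCr8), Runx3 is the protein-coding neighbour of Clic4 and Rcan3 lies on its other side, Runx2 is the neighbour of Clic5 with Rcan2 on its other side, and Clic6 stands between Rcan1 and Runx1. Runx genes encode transcription factors and Rcan genes encode inhibitors of calcineurin. Runx2 was called higher in cirrhosis than in healthy LSECs (log2 fold change 1.48 ± 0.436, SE; limma-voom adjusted p = 0.0113), with 5.99 to 15.7 CPM in cirrhotic and 1.57 to 12.0 CPM in healthy libraries, which overlapped. In the TAA experiment Runx2 was called in the other direction than Clic5. It was at 0.705 to 2.39 CPM in T1-5 and 2.92 to 9.68 CPM in T10-15, with a log2 fold change of 1.89 ± 0.447 (SE; limma-voom adjusted p = 0.00515). Rcan2 was at 1.12 to 3.84 CPM in T1-5 and 0.198 to 0.399 CPM in T10-15, called lower with Clic5 (-2.68 ± 0.502, SE; limma-voom adjusted p = 0.00142), and at cirrhosis its value of 1.02 ± 0.506 (SE) against healthy did not pass (adjusted p = 0.099). Runx3, the neighbour of Clic4, was called higher in T10-15 (2.68 ± 0.552, SE; limma-voom adjusted p = 0.00238) where Clic4 was called lower.

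Of the 6 Runx and Rcan genes, all passed the filter. Against healthy LSECs, none rose and 4 fell in acute (median log2 fold change -2.49, beside -0.0855 over all genes), none rose and 3 fell in fibrosis (-1.25, beside -0.0312), and 1 rose and 1 fell in cirrhosis (0.31, beside 0.0704). Of all genes tested, 73.4% were called in acute, 70.2% in fibrosis and 51.8% in cirrhosis, in either direction. Rcan1, next to Clic6, was the one that fell at cirrhosis (-0.75, limma-voom adjusted p = 0.00636), and its mean level was 370 CPM in healthy, 44.7 CPM in acute, 72.6 CPM in fibrosis and 218 CPM in cirrhotic LSECs, while Clic6 stayed near 0 in all of them. Scaled by library size, Rcan1 was at -0.41 and not called (adjusted p = 0.0649). Runx1 (0.25) and Rcan3 (0.12) were not called at cirrhosis. In T10-15 against T1-5, Runx1 was not called (-0.72) except without T1-5 replicate 1 (-0.98).

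**Figure D5:**
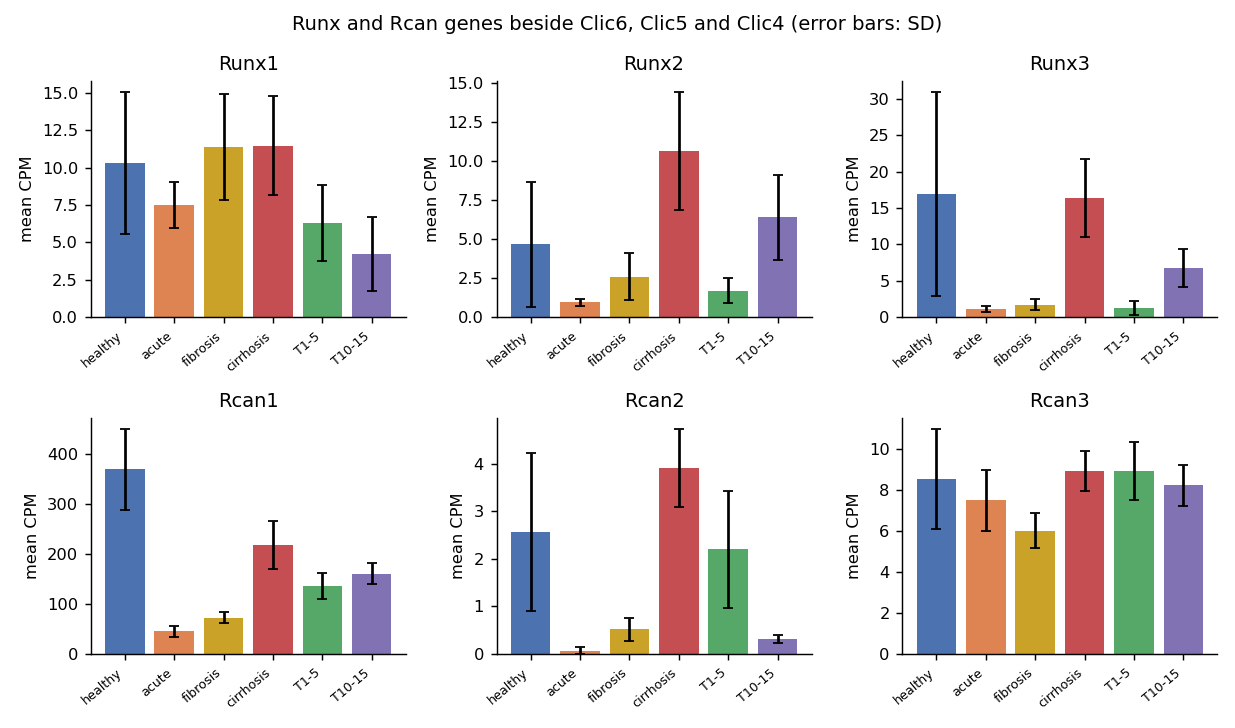
Mean level in CPM (bars, with SD as error bars, cut at 0) of the Runx and Rcan genes beside Clic4, Clic5 and Clic6 in the 6 groups of LSEC libraries. Runx2, next to Clic5, averages 6.37 CPM in T10-15 and 1.69 CPM in T1-5, where Clic5 is higher in T1-5.

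The proteins that work with CLICs were compared next. Of 12 ERM scaffold genes, 11 were tested at cirrhosis against healthy, of which 2 rose, 4 fell and 5 were not called (median -0.00137 on the log2 scale, beside 0.0704 over all genes). Of all genes tested, 51.8% were called there. Msn (0.04) and Podxl (0.36), which encode moesin and podocalyxin, were not called, while Slc9a3r1 (-2.14), which encodes the ERM-binding scaffold protein NHERF1, Slc9a3r2 (-0.86), Tprn (-1.48), the stereocilia partner taperin, and Icam2 (-1.43) fell. Rdx, which encodes radixin (1.30, limma-voom adjusted p = 0.00277), and Myo6, which encodes myosin VI (1.35, adjusted p = 0.000751), were the 2 that rose. Both lay outside the rule for named genes and were named after their values were seen. In T10-15 against T1-5, where Clic4 and Clic5 were called lower, 4 rose and 3 fell of 11, beside 27.6% of all genes called. Podxl (-0.70) and Slc9a3r2 (-0.78) were among those that fell, and Slc9a3r1 (1.24) and Tprn (0.60) among those that rose. Tprn fell short of the fold limit without T1-5 replicate 4 or T10-15 replicate 13 (0.56 in both), with DESeq2 (0.58) or its size factors (0.58), and with library-size scaling (0.56). At cirrhosis, Slc9a3r2 was at -0.51 with library-size scaling and lost its call.

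Of 16 binding partners of single members, 10 were tested at cirrhosis, of which 3 rose and 1 fell, beside 51.8% of all genes called. Akap9 (1.35), Nek7 (1.11) and Ppm1a (0.61), a phosphatase tied to Clic4, rose, and Tgm2 (-1.07), a transglutaminase tied to Clic3, fell, while Ywhaz (0.06) was not called. The Ppm1a call was lost in 5 of 12 fits that left out 1 library, without healthy replicate 1, 2 or 4 or cirrhosis replicate 3 or 4 (0.55 to 0.57).

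Of 32 other chloride channel genes, 21 were tested at cirrhosis against healthy, where 6 rose and 4 fell (median 0.22, beside 0.0704). There, 51.8% of all genes were called. Ano1 (4.04, limma-voom adjusted p = 0.000193), a calcium-activated chloride channel, Cftr (3.44, adjusted p = 0.000401), the epithelial chloride channel of cystic fibrosis, and Ano2 (2.16) rose, while Lrrc8a (-0.34), Lrrc8c (0.06) and Ano6 (0.25) were not called. Cftr is also one of the cholangiocyte markers above. Its counts were low, 0 to 7 per healthy and 11 to 30 per cirrhotic library (means 0.0537 and 0.494 CPM), as were those of Ano2, 1 to 11 per healthy and 26 to 99 per cirrhotic library, so the size of both folds is uncertain. The mean of Ano1 was 7.83 CPM at cirrhosis against 0.717 CPM in healthy libraries. In T10-15 against T1-5, 4 of 20 fell, Ano1 (-3.99) and Cftr (-3.58) among them, and none rose, beside 27.6% of all genes called. Of 15 cytosolic glutathione transferases, whose fold CLICs share, 13 were found and tested at cirrhosis. Of these, 3 rose and 6 fell (median -0.63, beside 0.0704), where 51.8% of all genes were called. Gsta3 rose (2.22), Gstp1 (-2.34), Gstm1 (-1.45) and Gstz1 (-1.91) fell, and Gsta1 (-0.63) was not called. Gsta3 held only 1.05 to 28.8 counts per healthy library, so the size of its fold is uncertain. Over the healthy libraries Gstm1 ran from 80.0 to 1027 CPM and Gstz1 from 27.9 to 346 CPM. The summed hepatocyte markers ran from 716 to 17300 CPM there, and their part in these falls was not tested. The Gstm1 call was lost in 6 of 12 fits that left out 1 library (healthy replicate 1, 2 or 4 or cirrhosis replicate 3, 4 or 6), with limma-voom adjusted p from 0.0514 to 0.0744 there, and Gsta1 was called without healthy replicate 5 (-0.84).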

How the data were processed

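Poly(A) RNA from LSECs gave 32 stranded libraries (22 CCl4, 10 TAA). The authors trimmed reads with Trim Galore, aligned them by STAR (build Rnor_6.0), estimated gene abundance by RSEM, and deposited the expected counts per gene, neither normalized nor pooled. These need not be whole and were rounded. Gene-level counts cannot separate the isoforms of Clic5. Tests ran with limma 3.58.1, DESeq2 1.42.0 and edgeR 4.0.16 under R 4.3.3, and plots with matplotlib 3.10.9 under Python 3.11.15. Each comparison was a limma-voom fit of 2 groups with TMM factors, filterByExpr and no covariate. Adjusted p-values are Benjamini-Hochberg values over all genes tested, and a call needs one under 0.05 and a fold-change above 1.5. The study's methods used unadjusted p-values, which are an alternative here. Log2 CPM carried a pseudocount of 0.5. Exact permutation tests were two-sided.

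Members and lists were chosen with earlier results of these data known. Genes named are the 6 Clic genes, the 6 Runx and Rcan genes, from each other pathway list the 3 of highest mean log2 CPM over the 22 CCl4 libraries and up to 3 called genes with the largest cirrhosis against healthy change, and the 5 genes with a standard symbol most correlated with Clic5. Exceptions are stated. The results of 1 pathway list are not reported here. Gstm2, Gstm5, Pecam1, Ackr1 and Col1a2 were not matched by symbol. Groups came from the sample labels, and the duration of the cirrhotic group from the series text. The T10-15 titles and descriptions number the libraries differently, and titles were used. Healthy, acute and cirrhotic libraries share replicate numbers. Deviations from the group means went together by number weakly or not at all (r of -0.24 to 0.29), and the main fits were unpaired. The fitting was tested on simulated data with a fixed dispersion, where far fewer genes changed than here, equally in both directions. That test therefore cannot judge the scaling or the error rates in these data. Alternatives were other tools, scalings and filters, sample weights, a replicate block, 1 fit of all groups, and each library left out in turn. No transcript lengths were used, so levels are not compared between genes.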

Additional observations from a re-analysis of the deposited data

Results flagged for a closer look

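In 2 of the 30 groups of Clic values examined, 1 library stood apart from the others of its group (Dixon's test at the 95% level), and about 1.5 such groups are given by chance. Clic4 in healthy replicate 3 was 805 CPM, where the other healthy libraries held 289 to 380 CPM. Clic4 in cirrhosis replicate 2 was 289 CPM, where the other cirrhotic libraries held 507 to 623 CPM.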

How the results depend on the processing

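No called result reversed under any alternative. The Clic3 calls against healthy, Clic2 in fibrosis and cirrhosis against healthy, Clic4 in fibrosis against healthy, and Clic4 and Clic5 in T10-15 against T1-5 held under every alternative run, the last with log2 fold changes of -3.66 to -2.83 for Clic5 when 1 library was left out. Counting T10-15 replicates 14 and 15 as 1 library, chosen after seeing the data, changed no member's call. The exact permutation tests were not repeated in that way. The number of members called in acute against healthy (2) was 1 with edgeR, a mean CPM of at least 1 or upper-quartile scaling. It was 3 with the unadjusted p, DESeq2 size factors, library sizes, sample weights or 1 fit of all groups. With no filter it was 4 (Clic2 and Clic6 in addition), and with 1 library left out 1 to 3. In fibrosis against healthy (3) it was 4 with no fold limit, edgeR, no filter, sample weights or 1 fit of all groups, and 3 to 4 with 1 library left out. In cirrhosis against fibrosis (2) it was 1 with upper-quartile scaling or 1 fit of all groups, and 1 to 2 with 1 library left out. In cirrhosis against acute (0) it was 2 with no fold limit or no filter, 1 with a mean CPM of at least 1, DESeq2 size factors or upper-quartile scaling, and 0 to 1 with 1 library left out. In fibrosis against acute (0) it was 0 to 1 with 1 library left out, and in T10-15 against T1-5 (1) it was 3 with no fold limit. Clic5 in fibrosis against acute, at 1.55, was called on the unadjusted p (1.55), with edgeR (1.74), DESeq2 (1.75) and sample weights (1.56), and ran from 1.16 to 1.81 with 1 library left out (adjusted p 0.0332 to 0.119, limma-voom). The cause of these changes was not tested.

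Scaling by library size moved the median log2 fold change of all genes against healthy from -0.0855 to 0.323 in acute, -0.0312 to 0.367 in fibrosis and 0.0704 to 0.416 in cirrhosis, and the share of calls that were higher from 48.4% to 58.2%, 50.3% to 60.9% and 52.2% to 71.3%. Clic1 then read 0.05 in acute and Clic4 0.73 in cirrhosis against healthy (called). Genes called in fibrosis against acute numbered 1529, but 746 in 1 fit of all groups, 2826 with no fold limit and 2346 with sample weights. In T10-15 against T1-5 they numbered 3970, but 7139 with no fold limit. By shared replicate number, r of deviations was -0.24 to 0.29 over 6 pairs of cirrhosis and healthy. It was 0.03 to 0.2 over 4 pairs of acute and healthy, with 2 pairs above 0.1, so whether the numbers pair libraries is not settled. The replicate block gave 0.55 for Clic4 (call lost) and 1.37 for Clic2 (called) in acute against healthy, and changed no other Clic call. Over the alternatives run, values of the named genes kept their side of the threshold 4818 times, lost a call 167 times and gained one 82 times; 67 uncalled values changed sign. Depth limits Clic6 and, in acute and fibrosis LSECs, Clic5.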

Other observations

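Markers of cells not set beside a Clic result above, and the calls of the mesothelial markers, were as follows, in summed CPM over each list. Of all genes tested, 51.8% were called in cirrhosis against healthy. Other endothelial markers (6 found of 7) were at 2040 to 5190 in healthy, 104 to 158 in acute, 168 to 320 in fibrosis, 3220 to 5680 in cirrhosis, 2330 to 3570 in T1-5 and 1350 to 1470 in T10-15 libraries. At cirrhosis against healthy, 3 of these 6 were called higher and 1 lower. Their median sum was 4030 in cirrhosis, 3210 in healthy, 256 in fibrosis and 116 in acute libraries, which is the order of the Clic5 levels. Their part in the Clic5 levels was likewise not tested. Hepatocyte markers were at 716 to 17300 in healthy, 87.2 to 778 in acute, 1030 to 4270 in fibrosis, 1650 to 11000 in cirrhosis, 1480 to 4010 in T1-5 and 447 to 1090 in T10-15 libraries, and macrophage markers at 204 to 3010, 54.7 to 144, 26.4 to 183, 639 to 2500, 16.1 to 113 and 44.2 to 192 in the same order. Mesothelial markers were at 4.43 to 95.5 in healthy and 6.95 to 14.4 in cirrhosis, and none of 6 was called between these groups by limma-voom. B cell markers were at 4.65 to 22 in healthy and 2.01 to 7.54 in cirrhosis, and neutrophil markers at 3.59 to 45 in healthy and 2.82 to 13.6 in cirrhosis, with 3 of 4 neutrophil genes tested called higher at cirrhosis.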
